A study of Mus musculus with 6 samples.

Results

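The genes described here encode RNA-binding proteins that are reported to bind RNA G-quadruplexes (rG4s) and are not helicases. They are Cnbp, Ncl, Fmr1, Fxr1, Fxr2, Taf15, Ewsr1, Hnrnpa2b1 and Hnrnph1, and membership is set by gene name, with no threshold on a measured value. All 9 were found among the 22416 genes of the table, and all 9 passed the filter of a mean of at least 1 FPKM, as 15127 genes did. The study measured ribosome footprints in mouse oocytes by Ribo-lite, which is ribosome profiling adapted to few cells. A footprint is the piece of mRNA that a ribosome shields from nuclease. FPKM is the number of footprint fragments scaled to the length of the coding sequence and to the total of the library, so levels of different genes can be set side by side.

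There were 6 libraries, with n = 2 in each of 3 groups, and each library was made from 500 oocytes. All oocytes were wild type (WT) and came from ovaries of female mice aged 4 weeks on a C57BL/6 background, collected 44 h after injection of 5 IU of pregnant mare serum gonadotropin. WT_FGO were control oocytes that were fully grown and still held an intact germinal vesicle. WT_MII were control oocytes at metaphase II, and Treat_MII were treated oocytes at metaphase II. The labels say only that the last group was treated. Per the study's methods the agent was BYBX, a ligand that stabilizes rG4s, the controls received its solvent dimethylsulfoxide, and maturation took place in culture. The oocytes of each library were a pool, and the sources used here do not say whether the replicate libraries came from separate animals or cultures, so p-values measure only the spread between libraries.

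An rG4 is a stack of planes, each made of guanines from separate G runs of the same RNA, and it can slow ribosomes or block the start of translation. Some proteins that bind it keep the RNA unfolded, and others hold the folded form or bring the mRNA into silent granules. Oocytes end transcription before they resume meiosis, so the proteins made during maturation come from stored mRNAs whose translation is switched on or off by RNA-binding proteins.

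The mRNAs of these genes can themselves carry rG4 motifs. The motif searched was 4 runs of at least 3 G separated by loops of 1 to 7 bases, on the sense strand of the longest coding transcript of each gene. It occurred 4 times in 3 of the 9 genes. The sequences are shown because the treatment was an rG4 ligand, with the G runs in capitals and from 5′ to 3′ in DNA letters (GRCm38, the assembly also called mm10).
Fxr2 coding sequence, exon 12, chr11:69651018-69651046, plus strand: GGGGGcagctatGGGGGccGGGGccGGGG
Fxr2 3′-UTR, exon 17, chr11:69653107-69653134, plus strand: GGGGatagtgaGGGtattcgtGGGtGGG
Ncl 3′-UTR, exon 14, chr1:86347669-86347690, minus strand: GGGtttattGGGGaGGGaaGGG
Taf15 3′-UTR, exon 16, chr11:83506574-83506591, plus strand: GGGtGGGaGGGttGGGGG
No motif of this form lay in the transcripts of the other 6 genes, and none of the 9 had one in its 5′-UTR. The 5′-UTR searched was only 15 bases long for Fmr1 and 21 bases for Ewsr1. It ran from 74 bases (Hnrnph1) to 328 bases (Fxr2) for the other genes. For Fmr1 and Ewsr1 the stretch was too short for the search to decide whether a longer 5′-UTR holds a motif. Among 14825 tested genes with an annotated transcript, 19.9% held the motif somewhere, 6.96% in the 5′-UTR, 4.53% in the coding sequence and 10.4% in the 3′-UTR. A match is a run of letters and not a measured rG4, and which transcript the oocytes use was not tested.

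Depth limited every value. The library constants corresponded to 94309 and 107251 reads in WT_FGO, 164972 and 230907 in WT_MII, and 331304 and 275604 in Treat_MII. Whole reads could be recovered for all 9 genes, which held from 68 reads (Fxr2) to 616 reads (Hnrnph1) over the 6 libraries together. Of the 10 oocyte marker genes, all were above 0 in every library, and their summed level was 30705 to 48432 FPKM in WT_FGO, 9052 to 10371 FPKM in WT_MII and 14739 to 14833 FPKM in Treat_MII. Granulosa or cumulus markers, from the somatic cells around the oocyte, summed to 133 FPKM in WT_FGO_1 and 1221 FPKM in WT_FGO_2. In WT_FGO_2, 7 of these 10 markers were above 0, led by Inha (747 FPKM against 29.0 in WT_FGO_1), and Kitl, Has2 and Ptgs2 were at 0. The sum was 163 to 265 FPKM in WT_MII and 108 to 140 FPKM in Treat_MII. WT_FGO_2 thus stood apart, so the maturation changes below are also given without either fully grown library. With 1 library left out, its group is a single library that is assumed to vary like the other groups, whose spread then carries the test. The groups did not vary alike. Over genes with at least 60 reads, the standard deviation of the log2 difference between replicates was 1.54 in WT_FGO, 1.03 in WT_MII and 0.50 in Treat_MII. Without 1 WT_FGO library the error comes from groups of smaller spread, so those changes are given by size. The main fit also shares 1 estimate of the spread over all groups.

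The 9 genes covered a wide range of levels. Cnbp had the highest mean level over the 6 libraries (613 FPKM), followed by Hnrnpa2b1 (386 FPKM), Hnrnph1 (300.4 FPKM), Ncl (138 FPKM), Fxr1 (122 FPKM), Taf15 (66.3 FPKM), Ewsr1 (65.4 FPKM), Fxr2 (37.2 FPKM) and Fmr1 (35.7 FPKM). Taf15 and Ewsr1 changed places when the length of the longest coding transcript was used. The order differed between groups. Fxr1 stood in position 3 in WT_FGO, 7 in WT_MII and 4 in Treat_MII, whereas Cnbp and Hnrnpa2b1 stood first and second in each group. In WT_FGO the libraries of neighbouring genes overlapped at every step of the order except between Ewsr1 and Fmr1. In Treat_MII they were separate for all neighbours except Fxr1 and Taf15, and Taf15 and Ncl.

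**Figure D1:**
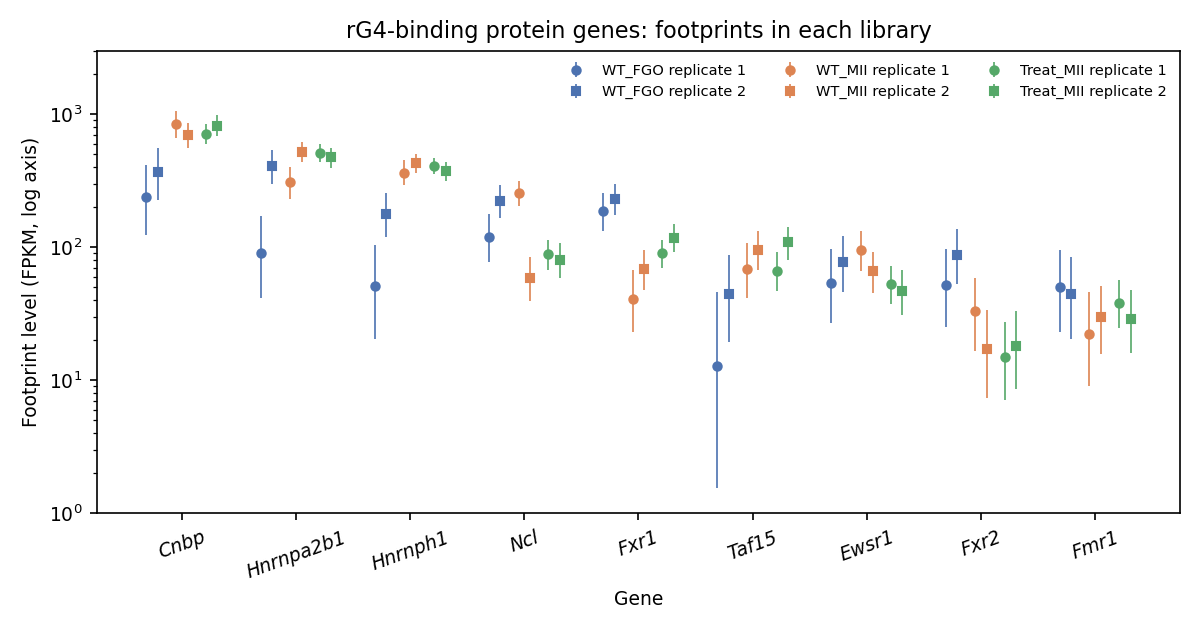
Footprint level in FPKM (log axis) of each gene in each library, with circles for replicate 1, squares for replicate 2, colours for the groups and bars for exact Poisson 95% intervals of the recovered reads, which cover counting error only. The Cnbp libraries run from 238 to 840.0 FPKM and the Fxr2 libraries from 14.9 to 87.6 FPKM. On the log axis the widest interval is that of Taf15 in WT_FGO_1, where 2 reads were found.

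The first comparison asked how footprints on these genes differed after maturation (WT_MII against WT_FGO). None of the 9 genes passed an adjusted p under 0.05 in limma, where 3.67% of all 15127 tested genes were called higher and 3.09% lower. All 9 had at least 60 reads, and of the 2706 genes with that coverage the same fit called 16.3% higher and 8.39% lower. At an unadjusted p under 0.05 there were 5 of 9 (Cnbp, Fxr1, Fxr2, Taf15 and Hnrnph1), against 22.8% of all tested genes. In a fit limited to genes with at least 60 reads, 46.3% passed even an adjusted p under 0.05. The 5 of 9 is therefore not read as an excess. Higher values in both WT_MII libraries than in either WT_FGO library were found for 3 genes (Cnbp, Taf15 and Hnrnph1), against 15.3% of all tested genes, and lower values for 3 (Fmr1, Fxr1 and Fxr2), against 25.8%. Under the same limit of 60 reads the shares were 41.2% and 34.4%, so the counts of 3 and 3 were near the background of genes of similar coverage. The median change of the 9 genes was 0.29 on the log2(FPKM + 1) scale, beside -0.44 over all tested genes and 0.23 over those with at least 60 reads. Each library was also centred on its median deviation from the gene means, taken over genes averaging 5 FPKM or more. This median centring moved the median of all tested genes to 0.12, so signed changes are relative to the scaling.

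Cnbp encodes a small zinc finger protein (chromosome 6, 87842615 to 87851106) that binds G-rich mRNAs and is known to keep them from folding into G-quadruplexes. Its level was 238 and 367 FPKM in the fully grown libraries, 840.0 and 697 FPKM in the control metaphase II libraries and 712 and 822 FPKM in the treated ones. All 4 metaphase II libraries were above both fully grown libraries, and the control and treated libraries were interleaved. The ratio of WT_MII to WT_FGO means was 2.54, and the log2 change was 1.37 ± 0.30 (SE), for which limma gave an adjusted p of 0.0511, just above the threshold. The change was 1.06 without WT_FGO_1 and 1.68 without WT_FGO_2. The latter value rests on the 12 reads of WT_FGO_1 alone. Over all the alternatives that were run, the adjusted p of Cnbp ran from 0.0121 with median centring to 0.213 with only the compared groups (limma).

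The heterogeneous nuclear ribonucleoproteins Hnrnph1 and Hnrnpa2b1 act in splicing and in the handling of mRNA. Hnrnph1 (chromosome 11, 50376990 to 50386528), which recognizes runs of G, had 50.7 and 178 FPKM in the fully grown libraries, 365 and 426 FPKM in the control metaphase II libraries and 411 and 372 FPKM in the treated ones. Both fully grown libraries lay below all 4 metaphase II libraries, although they differed from each other by 3.52-fold. The ratio of means was 3.45 and the change 2.04 ± 0.59 (SE), with an adjusted p of 0.103 in limma. It was 1.14 without WT_FGO_1 (adjusted p = 0.0581, limma) and 2.93 without WT_FGO_2 (adjusted p = 0.0105, limma), where WT_FGO_1 held 7 reads. Over all the alternatives the adjusted p of Hnrnph1 ran from 0.00386 with precision weights, a fit on the genes of at least 60 reads only, to 0.378 without WT_MII_2 (limma). Of the stretches of 28 bases in its coding sequence, 7.55% also occur in other genes, Hnrnph2 among them, so footprints there may be shared between them.

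Hnrnpa2b1 (chromosome 6, 51460932 to 51469894) had 90.1 and 405 FPKM in the fully grown libraries, 309 and 523 FPKM in the control metaphase II libraries and 513 and 473 FPKM in the treated ones. Here the fully grown libraries differed by 4.49-fold, the widest gap between replicates of WT_FGO among the 9 genes, and WT_FGO_2 lay between the WT_MII libraries. The maturation change of 1.07 ± 0.70 (SE) had an adjusted p of 0.482 in limma. It was -0.01 without WT_FGO_1 and 2.15 without WT_FGO_2, so the value rested on which fully grown library was used. Pseudogenes and other genes share 25.6% of its coding stretches of 28 bases.

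The fragile X family consists of Fmr1, whose protein FMRP represses the translation of selected mRNAs and binds rG4s through an arginine and glycine rich region, and its relatives Fxr1 and Fxr2. Fxr1 (chromosome 3, 34019943 to 34070322) had 187 and 231 FPKM in the fully grown libraries, 41.0 and 68.4 FPKM in the control metaphase II libraries and 89.9 and 118 FPKM in the treated ones. The 3 groups did not overlap: fully grown libraries were highest, treated ones intermediate and control metaphase II ones lowest. The WT_MII mean was 0.262 of the WT_FGO mean, a change of -1.95 ± 0.43 (SE) with an adjusted p of 0.0511 in limma. It was -2.11 without WT_FGO_1 and -1.80 without WT_FGO_2. Over all the alternatives the adjusted p of Fxr1 ran from 0.00140 with precision weights to 0.189 with only the compared groups (limma). It was under 0.05 with precision weights, under the 60-read limit and for genes averaging 5 FPKM or more, and above it in every other fit.

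Fxr2 (chromosome 11, 69632990 to 69653297), whose mRNA holds the coding and 3′-UTR motifs shown above, had 52.4 and 87.6 FPKM in the fully grown libraries, 33.0 and 17.1 FPKM in the control metaphase II libraries and 14.9 and 17.9 FPKM in the treated ones. These values rest on 8 to 19 reads per library. Both fully grown libraries were above all others, and the change was -1.47 ± 0.60 (SE) with an adjusted p of 0.215 in limma. Over all the alternatives the adjusted p of Fxr2 ran from 0.0322 with precision weights to 0.452 with median centring (limma). It was -1.84 without WT_FGO_1 and -1.11 without WT_FGO_2.

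Fmr1 (chromosome X, 68678541 to 68717963) had 50.4 and 44.3 FPKM in the fully grown libraries, 22.4 and 29.7 FPKM in the control metaphase II libraries and 38.3 and 28.8 FPKM in the treated ones. Both fully grown libraries lay above the rest, with 9 reads in each of them. The change was -0.85 ± 0.50 (SE) with an adjusted p of 0.420 in limma, between -0.94 and -0.76 without either fully grown library. The 3 family members had the same sign of maturation change under each alternative that was run. This is a description of 3 related genes, with no test over the family.

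Taf15 and Ewsr1 belong to the FET family of nuclear RNA-binding proteins, which carry arginine and glycine rich repeats and act in transcription and splicing. Taf15 (chromosome 11, 83473086 to 83506743), which holds a 3′-UTR motif, had 12.7 and 44.6 FPKM in the fully grown libraries, 68.9 and 95.9 FPKM in the control metaphase II libraries and 66.8 and 109 FPKM in the treated ones. The fully grown libraries were lowest, with 2 and 8 reads. The change was 1.72 ± 0.69 (SE) with an adjusted p of 0.210 in limma, and it was 0.85 without WT_FGO_1 and 2.59 without WT_FGO_2.

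Ewsr1 (chromosome 11, 5069689 to 5099266) had 53.8 and 77.5 FPKM in the fully grown libraries, 95.2 and 66.0 FPKM in the control metaphase II libraries and 53.0 and 46.9 FPKM in the treated ones. Its control groups overlapped, and the change was 0.29 ± 0.45 (SE) with an adjusted p of 0.740 in limma (0.03 without WT_FGO_1 and 0.55 without WT_FGO_2). Other genes, predicted ones such as Gm6627 among them, share 64.5% of its coding stretches of 28 bases. How the authors' counting placed such reads is not given in the sources used here, so the Ewsr1 level is uncertain.

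Ncl encodes nucleolin (chromosome 1, 86344719 to 86359400), an abundant nucleolar protein needed for the making of ribosomal RNA, and its 3′-UTR holds a motif. It had 120.0 and 224 FPKM in the fully grown libraries, 254 and 59.2 FPKM in the control metaphase II libraries and 88.2 and 80.4 FPKM in the treated ones. The WT_MII libraries lay on either side of both WT_FGO libraries, with 89 reads in the first and 29 in the second. The change of -0.41 ± 0.73 (SE) had an adjusted p of 0.781 in limma. It was -0.86 without WT_FGO_1, 0.036 without WT_FGO_2, -1.45 without WT_MII_1 and 0.63 without WT_MII_2, so these data give no direction for Ncl. Predicted genes (Gm12020 and Gm17837) share 16.0% of its coding stretches of 28 bases.

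**Figure D2:**
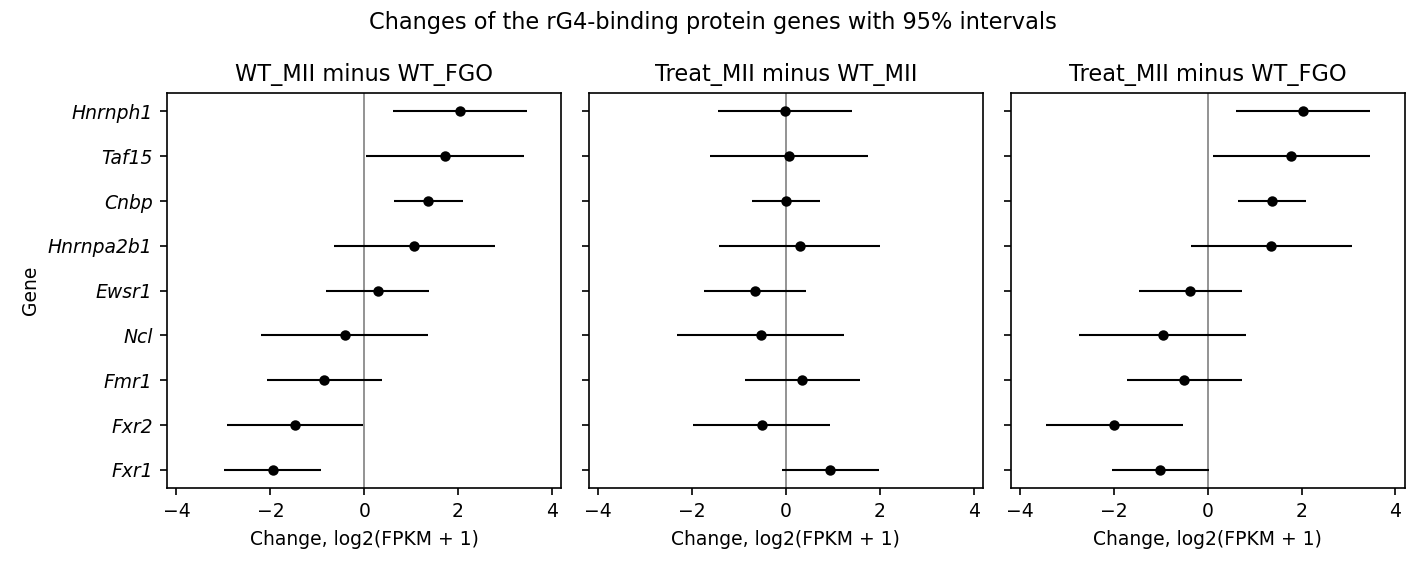
Change of each gene on the log2(FPKM + 1) scale (horizontal axis) in the 3 comparisons, with points for the limma estimate over n = 2 libraries a group and bars for its unadjusted 95% interval. In the maturation panel Hnrnph1 (2.04), Taf15 (1.72), Cnbp (1.37), Fxr2 (-1.47) and Fxr1 (-1.95) have intervals that leave out 0, whereas in the treatment panel the interval of every gene includes 0.

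The fully grown replicates were then set against each other, because several values turned on them. WT_FGO_2 was above WT_FGO_1 for 8 of the 9 genes, all but Fmr1, with a median ratio of 1.67. The share of genes with at least 60 reads that were higher in WT_FGO_2 was 54.9%, with a median ratio of 1.08. The ratio was 4.49 for Hnrnpa2b1 and 3.52 for both Taf15 and Hnrnph1. Of the granulosa or cumulus markers, 6 of 10 were higher in WT_FGO_2 and 2 were lower. The part of somatic cell footprints in the levels of these genes was not tested. With either metaphase II group, the libraries of a group differed in no such one-sided way, as 5 of 9 genes were higher in WT_MII_2 than in WT_MII_1 and 4 of 9 in Treat_MII_2 than in Treat_MII_1.

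**Figure D3:**
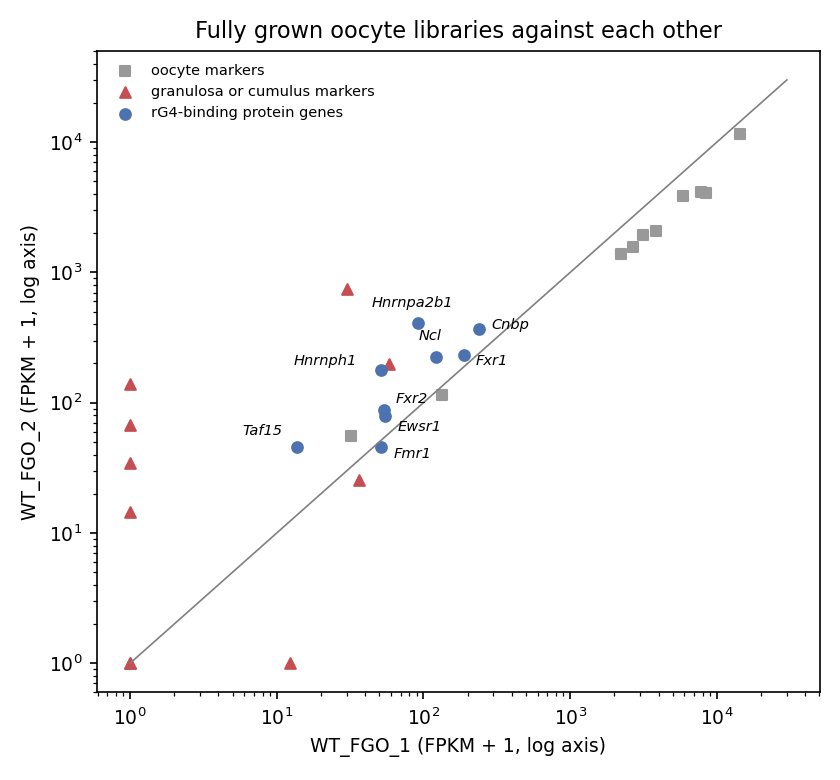
Levels of the rG4-binding protein genes (circles), oocyte markers (squares) and granulosa or cumulus markers (triangles) in WT_FGO_1 (horizontal) and WT_FGO_2 (vertical), as FPKM + 1 on log axes, with a line of equal values. Of the rG4-binding protein genes, 8 of 9 lie above the line, Hnrnpa2b1 farthest at 90.1 against 405 FPKM, and Inha is the highest triangle at 747 FPKM in WT_FGO_2.

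The effect of the treatment was examined by comparing Treat_MII with WT_MII, a comparison that shares the WT_MII libraries with the one above. None of the 9 genes had an adjusted p under 0.05 in limma, and none had an unadjusted p under 0.05. In all, 0% of tested genes were called higher and 0% lower, while 5.83% had an unadjusted p under 0.05. In 1 gene both treated libraries exceeded both controls (Fxr1), against 16.2% of tested genes, and in 1 both were lower (Ewsr1), against 15.6%. Among genes with at least 60 reads these shares were 25.0% and 21.1%. Under the other settings that kept both libraries of each compared group, the count of called genes among the 9 was also 0. Of all genes tested, 0.12% were called with no filter, 0.37% with precision weights and 0% under the rest of these settings.

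Fxr1 had the largest difference, 0.94 ± 0.43 (SE) with a 95% interval of -0.09 to 1.98 and an adjusted p of 0.900 in limma. On average the treated libraries held 1.90 times the control level. The difference was 0.58 without WT_MII_1 and 1.31 without WT_MII_2, and it kept its sign without any single library. Ewsr1 differed by -0.66 ± 0.45 (SE), with an interval of -1.76 to 0.44 and an adjusted p of 0.931 in limma, and the treated mean was 0.620 of the control mean.

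The other intervals were mostly wide. Cnbp was the most tightly bounded, with a difference of -0.0004 and an interval of -0.73 to 0.73 on the log2 scale. Hnrnph1 differed by -0.01 (interval -1.44 to 1.42), Taf15 by 0.07 (interval -1.61 to 1.74) and Hnrnpa2b1 by 0.29 (interval -1.42 to 2.00). Fmr1 differed by 0.35 (interval -0.87 to 1.57), Fxr2 by -0.51 (interval -1.97 to 0.94) and Ncl by -0.54 (interval -2.32 to 1.24). Both a 2-fold increase and a 2-fold decrease, 1 and -1 on the log2 scale, lay outside the interval for Cnbp alone, and the other intervals included at least 1 of them. The genes with a motif, Fxr2, Ncl and Taf15, had differences of -0.51, -0.54 and 0.07, and the 6 without one ran from -0.66 to 0.94.

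The treated oocytes were also set against the fully grown ones, which they followed in stage, with the control fully grown libraries again shared. None of the 9 genes was called by limma, where 2.86% of tested genes were called higher and 1% lower. Of those with at least 60 reads, 12.9% were called higher and 3.58% lower. An unadjusted p under 0.05 was found for 4 of 9, against 19.9% of tested genes. A fit limited to genes with at least 60 reads called 42.4% at an adjusted p under 0.05, so the 4 are not read as an excess. Both Treat_MII libraries exceeded both WT_FGO libraries for 4 genes (Cnbp, Taf15, Hnrnpa2b1 and Hnrnph1), against 16.6% of tested genes, and below both for the other 5, against 28.9%. Among genes with at least 60 reads these shares were 42.4% and 38.4%. All 9 were thus separate here, where 3 overlapped in the maturation comparison (Ncl, Ewsr1 and Hnrnpa2b1). The differences were 1.37 for Cnbp (adjusted p = 0.0701, limma), 2.02 for Hnrnph1 (adjusted p = 0.132, limma) and 1.79 for Taf15 (adjusted p = 0.226, limma). They were -1.99 for Fxr2 (adjusted p = 0.143, limma), -1.01 for Fxr1 (adjusted p = 0.263, limma) and -0.50 for Fmr1 (adjusted p = 0.607, limma). Without WT_FGO_2, with WT_FGO_1 as the single fully grown library, the difference was 1.68 for Cnbp and 2.92 for Hnrnph1. Without WT_FGO_1 it was 1.06 for Cnbp and 1.13 for Hnrnph1.

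**Figure D4:**
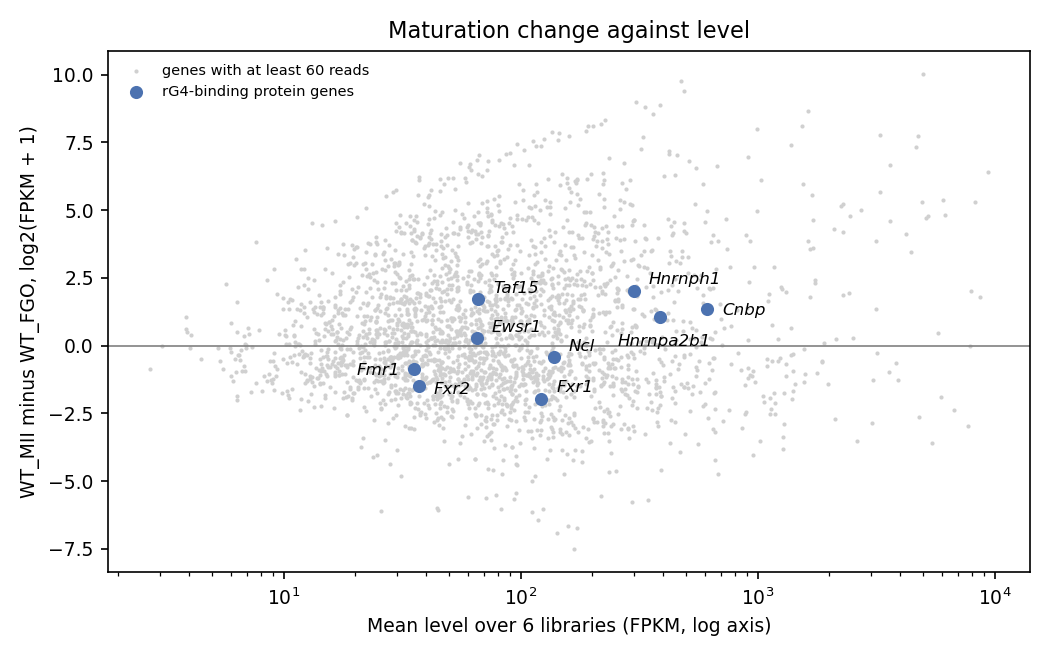
Maturation change on the log2(FPKM + 1) scale (vertical) against the mean level over the 6 libraries in FPKM (horizontal, log axis) for 2706 genes with at least 60 recovered reads (grey) and the 9 rG4-binding protein genes (blue). The 9 genes lie between -1.95 (Fxr1) and 2.04 (Hnrnph1), within the cloud of genes of like level.

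Genes close to these in function were taken as lists. Of 14 other proteins reported to bind rG4s, 1 was called higher and 1 lower in maturation. Lin28a, which binds G-rich and let-7 precursor RNA, had 3 reads in each WT_FGO library (50.7 and 44.6 FPKM) and 174 and 297 FPKM in WT_MII, a change of 2.23 ± 0.40 (SE) with an adjusted p of 0.0303 in limma. Pooled over libraries, its reads per library total gave a ratio of 5.18, with an exact 95% interval of 2.25 to 14.7. Serbp1, which associates with ribosomes, had 182 and 343 FPKM in WT_FGO against 24.7 and 21.2 FPKM in WT_MII, a change of -3.39 ± 0.50 (SE) with an adjusted p of 0.0175 in limma. Without WT_FGO_1 and without WT_FGO_2 the change was 2.32 and 2.14 for Lin28a and -3.84 and -2.93 for Serbp1. Without WT_MII_1 and without WT_MII_2 it was 2.62 and 1.85 for Lin28a and -3.50 and -3.28 for Serbp1. These fits are given by the size of the change only, which does not show whether a call holds in them. With no filter the adjusted p was 0.0586 for Lin28a and 0.0412 for Serbp1 (limma). With only the compared groups neither was called (adjusted p = 0.170 for Lin28a and 0.135 for Serbp1, limma). Neither passed the test in the other comparisons. Hnrnpf, the relative of Hnrnph1 that also binds G runs, had 14 reads in all and gave a maturation change of -1.96 ± 1.46 (SE), with an adjusted p of 0.490 in limma.

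Of 8 helicases that act on rG4s or are reported with them, Ddx3x was called, which promotes translation from structured 5′-UTRs. It rose from 422 and 366 FPKM in WT_FGO to 1767 and 2508 FPKM in WT_MII, a change of 2.42 ± 0.24 (SE) with an adjusted p of 0.00498 in limma, and stood at 2689 and 2698 FPKM in Treat_MII. Without WT_FGO_1 and without WT_FGO_2 the maturation change of Ddx3x was 2.52 and 2.32. Its adjusted p was 0.0882 with no filter and 0.158 with only the compared groups (limma). Dhx36, the main rG4 resolvase, had 251 and 255 FPKM in the fully grown libraries, 166 and 237 FPKM in the control metaphase II libraries and 146 and 118 FPKM in the treated ones. Its differences were -0.35 ± 0.34 (SE) in maturation (adjusted p = 0.547, limma; 0.21 with median centring) and -0.59 ± 0.34 (SE) with treatment (adjusted p = 0.931, limma).

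Of the 5 paralogs of the 9 genes listed, 4 were tested, as Zcchc13 was at 0 in every library. Hnrnph2 was called higher in WT_MII (adjusted p = 0.0105, limma), with no read in WT_FGO and 40.5 and 54.7 FPKM in WT_MII, at least 2.14-fold above the floor of 3 reads per library. As neither WT_FGO library held a read of Hnrnph2, leaving out either could not move its maturation change of 5.59. It was 8.88 with 0.1 instead of 1 added to the FPKM, so its size depends on that choice. The maturation change of Hnrnph2 was 5.80 without WT_MII_1 and 5.38 without WT_MII_2. With only the compared groups its adjusted p was 0.168 (limma). Partner proteins were Cyfip1, Cyfip2, Nufip1 and Caprin1 for the fragile X family and Npm1 and Fbl for nucleolin, and 0 of 6 were called in any comparison, with 0 at an unadjusted p under 0.05. With treatment, 0 genes of any of these lists were called, and 1 of the 4 paralogs, with 0 of the other genes, had an unadjusted p under 0.05 in limma. That paralog was Hnrnpa3, which held only 3 reads over the 6 libraries together. Of the oocyte markers, 1 was called higher and 6 lower in maturation and 0 with treatment, where 6 of 10 had an unadjusted p under 0.05 and 9 were higher in Treat_MII, by a median of 0.85 on the log2 scale, and 0 of the 9 tested granulosa or cumulus markers were called in either.

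The genes whose levels over the 6 libraries ran most like those of Cnbp, among 2669 genes with at least 60 reads, were Hmgcs1 (Pearson's r = 0.995), Ankzf1 (r = 0.994) and Alas1 (r = 0.993). The 6 points fall into groups by stage and differ in depth, so these coefficients describe the libraries and carry no p. Footprint levels follow both the amount of an mRNA and the number of ribosomes on it, and these cannot be told apart here, since mRNA levels were not used.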

How the data were processed

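Ribo-lite footprints from 6 libraries of mouse oocytes were analysed. The deposited table held FPKM per gene, which the authors computed for each library from reads placed on mm10. The submitters' processing notes name cutadapt 1.14, Bowtie2 2.2.2 and STAR 2.5.3a, and the counting program, annotation release and use of molecular identifiers are not given in the sources used here. No spike-in scaling is stated, so values are relative to each library's total. Of 22442 entries, 26 were dropped because their gene name had already occurred. FPKM multiplied by the union coding length (GENCODE M21, GRCm38) fell on whole multiples of 1 step per library, which gave whole reads within 0.02 for 97.9% of 16258 genes. One read in 1 kb was worth 3.02 to 10.6 FPKM. Poisson intervals and the floor of 3 reads cover counting error only, since PCR copies are not independent.

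log2(FPKM + 1) was fitted with limma 3.58.1 (R 4.3.3, lmFit and eBayes with trend) over all 6 libraries, for genes averaging 1 FPKM or more, and p-values were adjusted by Benjamini-Hochberg over all 15127 genes. The script was tested on simulated data with the same spread in every library, which checks the code and not the unequal spread of these groups. No pairing of libraries by replicate number was visible (deviations from group means correlated at 0.0342, 0.0176 and 0.0189). These values cannot show whether libraries of the same number shared animals or cultures.

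The 9 genes are named throughout, with Dhx36, Hnrnpf and, from lists of other rG4 binders, helicases, paralogs and partners, genes with an adjusted p under 0.05 (at most 5 a list), and the 3 genes most like the member with the highest mean level. Oocyte and granulosa or cumulus markers were lists of 10 genes each. Members and lists were chosen with earlier results of these data known. Alternatives comprised no filter, a minimum average of 5 FPKM, a pseudocount of 0.1, median centring, quantile normalization, a replicate block, only the compared groups, voom precision weights on recovered reads (genes of at least 60 reads), the longest coding transcript length and leaving out each library. Genes of at least 60 reads were added after seeing the data.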

Additional observations from a re-analysis of the deposited data

How the results depend on the processing

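In maturation 0 of 9 genes were called. The counts of called genes listed next are from fits with both libraries of each compared group. Fits with 1 library left out are not in this list. The count was 2 when genes averaged 5 FPKM or more (Cnbp, Fxr1), where 13.9% of all tested genes were called. It was 2 with median centring (Cnbp and Hnrnph1, with 6.84% of all called). With quantile normalization it was 1 (Cnbp, with 7.19% of all called). Among genes of at least 60 reads, a setting chosen after seeing the data, it was 3 (Cnbp, Fxr1, Hnrnph1). Precision weights fitted on those same genes gave 4 (Cnbp, Fxr1, Fxr2, Hnrnph1). Of these 2706 genes, 46.3% were called without weights and 49.6% with them. Treated oocytes were set against fully grown ones in fits of the same kind, with both libraries of each compared group. There the count went from 0 to 1, 2, 5 and 3 with the mean of at least 5 FPKM, centring, weights and 60 reads. The shares of all genes tested that were called in these fits were 8.21%, 4.75%, 52.6% and 42.4%. With the replicate block, and with only the compared groups, the count among the 9 was 0 in every comparison. Across all alternatives 16 changes of single genes turned sign, 27 passed the threshold and 362 did neither, over the 9 genes. With median centring the maturation change of Ncl was 0.15 and of Dhx36 0.21, and the treated against fully grown changes of Fmr1 and Ewsr1 were 0.052 and 0.18 (Ewsr1 0.017 with quantile normalization). The treatment change of Cnbp was 0.0018 with precision weights. Without single libraries, maturation changes ran from -0.0097 to 2.15 for Hnrnpa2b1 and -1.45 to 0.63 for Ncl, and treatment changes from -0.13 to 0.13 for Cnbp, -1.58 to 0.50 for Ncl, -0.28 to 0.41 for Taf15, -0.088 to 0.67 for Hnrnpa2b1 and -0.12 to 0.10 for Hnrnph1. Stricter filters test fewer genes. The cause of the other shifts was not tested. No maturation call of any gene was made without either treated library or from the compared groups alone.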
